A study of Mus musculus with 48 samples.

Results

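Translocations to the Igl locus were taken as every junction between the Jκ1 bait and the stretch of mouse chromosome 16 from 19 to 20 Mb (mm9), which holds the genes of the immunoglobulin lambda light chain. The rule found 8930 of the 41091 junctions that left the bait's chromosome 6 in the whole series, or 21.7%. Many of these were copies of each other: counted once per library by prey position, prey strand, bait end and overlap, they came to 949 distinct junctions. Of these, 925 distinct junctions, 97.5%, lay within 200 bp of a V or J segment border where RAG cuts.

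The libraries came from vAbl pro-B cells, a mouse pro-B line transformed with the Abelson virus kinase, which are WT (a single clone) or lack Ku70 (Ku70-/-, a single clone), so that loss of Ku70 and other differences between the clones cannot be told apart. The cells were either cycling or held with STI-571, a kinase inhibitor that stops their cycle and lets RAG cut the light chain loci, at 3 µM for 96 h together with DMSO, with the DNA ligase inhibitor L67 at 5 µM or with L82-G17, an inhibitor of DNA ligase I, at 25 µM. Each condition was read from the Jκ1 coding end and from the Jκ1 signal end, by HTGTS-JoinT-seq (linear amplification from the bait followed by sequencing of whatever was joined to it), with 3 libraries in each of the 16 groups and 500000 read pairs per library. The labels do not say whether the 3 libraries came from separate cultures. The study describes its experiments as biological repeats, but its text does not name the L67 and L82-G17 libraries, so each p below measures the spread between these libraries.

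During V(D)J recombination RAG cuts between a V or J segment and its recombination signal sequence (RSS), which is a heptamer and a nonamer with a spacer between them, and each cut leaves a hairpinned coding end and a blunt signal end. RAG pairs an RSS with a short spacer with one with a long spacer, and Ku70, in a heterodimer with Ku80, holds the ends for classical nonhomologous end joining. When cuts on different chromosomes are present in a cell, their ends can be joined to each other, and without Ku such joints are made by alternative end joining, which is known for resection. The study describes the joints of this pathway as mostly direct in arrested cells and as relying more on microhomology in cycling cells. In mouse B cells the lambda locus is used far less than Igk.

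The cut sites are shown first because every pileup below is measured from them. Each is printed outward from the coding segment, with 15 coding bases in lower case, then the heptamer in capitals, the spacer in lower case and the nonamer in capitals. The Jκ1 bait, at chr6:70672517-70672570 on the minus strand, has a spacer of 23 bases. The 3 J segments with junctions are Iglj1 at chr16:19063341-19063383, Iglj3 at chr16:19067157-19067199 and Iglj2 at chr16:19200314-19200356, read on the plus strand, with spacers of 12 bases. The 3 V segments are Iglv1 at chr16:19085071-19085124, Iglv3 at chr16:19241261-19241314 and Iglv2 at chr16:19260455-19260508, read on the minus strand, with spacers of 23 bases.
Igkj1: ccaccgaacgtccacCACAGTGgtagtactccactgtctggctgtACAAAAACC
Iglj1: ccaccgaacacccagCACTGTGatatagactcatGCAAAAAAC
Iglj3: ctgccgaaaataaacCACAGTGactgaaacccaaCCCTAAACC
Iglj2: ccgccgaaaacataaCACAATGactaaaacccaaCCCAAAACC
Iglv1: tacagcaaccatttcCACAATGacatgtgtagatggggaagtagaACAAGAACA
Iglv3: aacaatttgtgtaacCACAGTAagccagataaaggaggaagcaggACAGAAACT
Iglv2: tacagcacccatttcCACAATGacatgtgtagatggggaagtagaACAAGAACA
Iglv1 and Iglv2 carry the same RSS letters and differ at 5 of 150 bases on the coding side and 4 of 150 on the signal side of the break, so the split of junctions between them is uncertain. Iglj4, whose heptamer reads CACTGAT, had 0 junctions in all libraries, which allows up to 3. The genes lie on the minus strand, in the order Iglj1, Iglj3, Iglv1, Iglj4, Iglj2, Iglv3, Iglv2 from the low coordinate up. The GENCODE annotation of this build has the V segments (ENSMUSG00000076934.1 for Iglv1) but no J entries, so Iglj2 and Iglj3 were placed at the splice borders of Iglc2 and Iglc3 and Iglj1 and Iglj4 by their likeness to these.

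Libraries held between 8294 and 385847 junctions in all, bait-region joints included. With STI-571, WT libraries had more junctions (186395 to 385847 with the coding end bait) than Ku70-/- libraries (130546 to 172341) and fewer that left chromosome 6 (188 to 543 against 1423 to 2375). The first Ku70-/- library with DMSO stood apart with both baits. From the coding end it had 73 distinct translocations against 295 and 273 in the other two, and from the signal end 24 against 250 and 230.

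Igl junctions were found only after STI-571, in every Ku70-/- library and in fewer copies in WT. All 12 cycling libraries had 0, which allows up to 3 in each. These libraries also held fewer junctions in all, with 8294 to 32108 junctions each against 116039 to 385847 with STI-571, and with a median of 58 translocations. The 3 WT cycling libraries with the signal end bait held 5 translocations together, so a count of 0 at Igl says little there. With the coding end bait and DMSO, the 3 Ku70-/- libraries had 1065, 555 and 519 Igl junctions per 500000 read pairs (713 ± 305, SD, n = 3) and the 3 WT libraries 6, 4 and 40 (16.7 ± 20.2). Set over the limit of 3 per cycling library, the Ku70-/- mean was 238-fold and the WT mean 5.56-fold. These are not lower bounds, since the means count copies and the limit holds for separate junctions. In distinct junctions the means were 52.7 for Ku70-/- and 2.67 for WT, the second under the limit. The WT value in copies rests on the library with 40, without which the mean was 5, or 1.67-fold over the limit. Averaged over the genotypes, arrest raised log2(junctions + 1) by 6.45 (exact two-sided permutation test within genotype, p = 0.005, the smallest of 400 arrangements, adjusted p = 0.0125). The size depended on copies, and on the added 1 because all cycling libraries were at 0. It was 7.40 with 0.5 added in place of 1, 3.60 for distinct junctions and 2.96 once those within 2 bp were merged. With the signal end bait, Ku70-/- libraries with DMSO had 41, 392 and 389 (274 ± 202) and WT libraries 4, 0 and 0. The Ku70-/- mean in copies was 91.3-fold over the cycling limit, again not a lower bound, and the WT mean was under it. In distinct junctions the Ku70-/- mean was 32. Over both genotypes the difference between arrest and cycling came to 4.16 on the log2 scale and did not pass after adjustment (exact permutation p = 0.05, adjusted p = 0.0909). It was 4.79 with 0.5 added in place of 1, 2.29 for distinct junctions and 2.01 after merging.

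**Figure D1:**
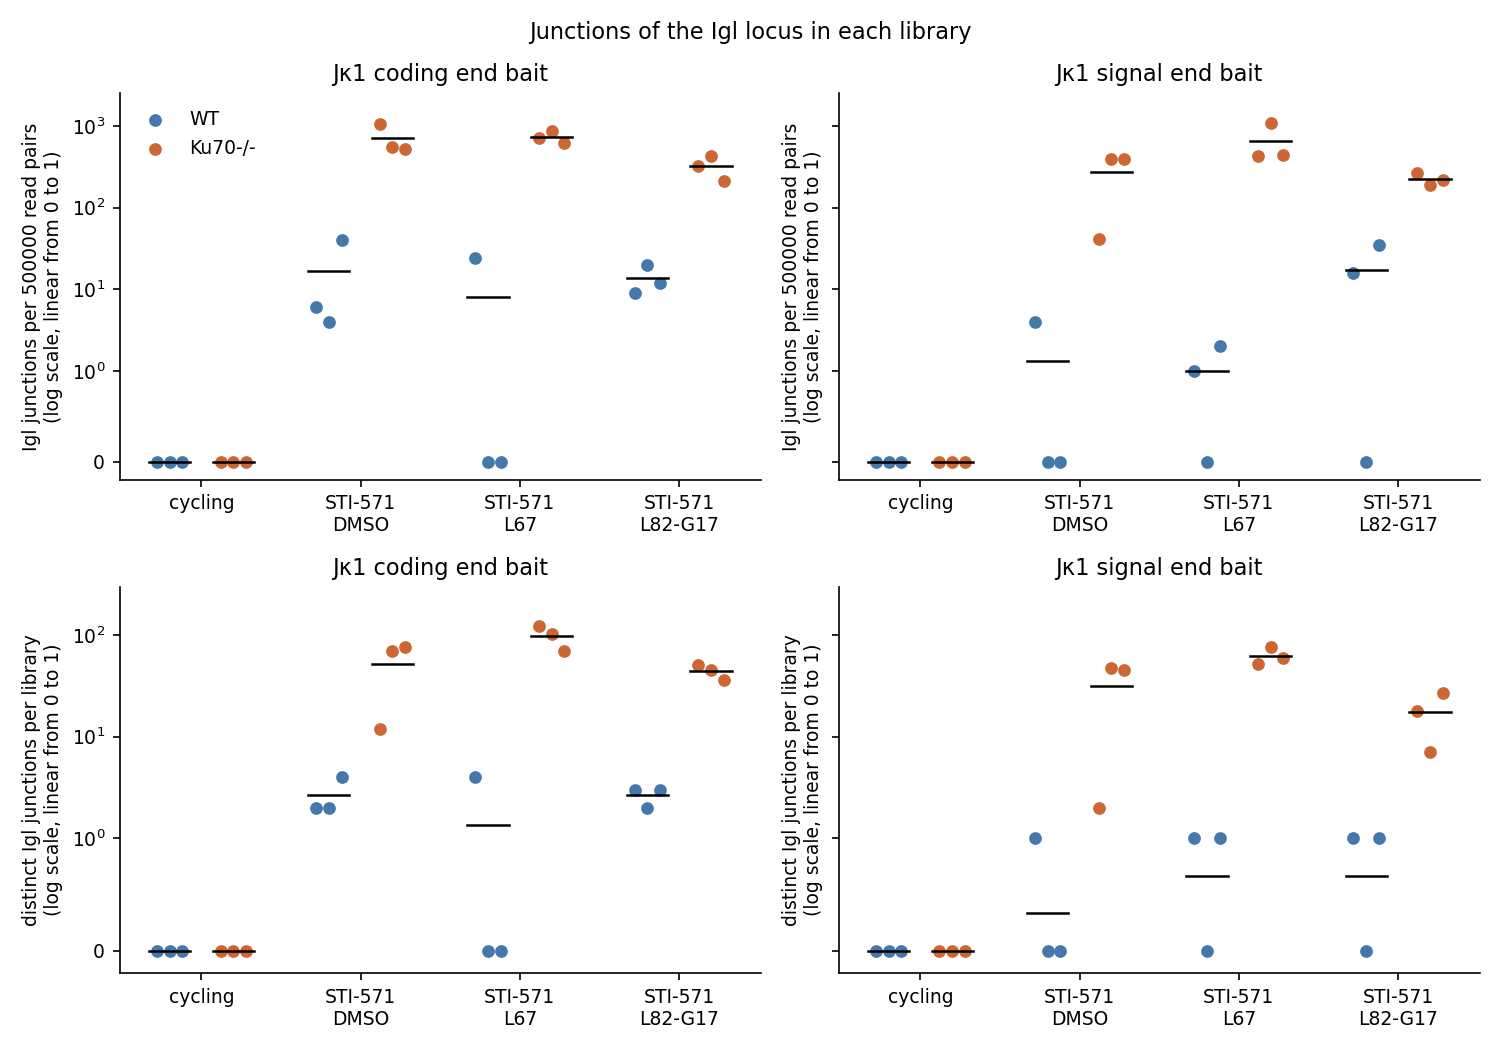
Igl junctions in each library (upper panels, copies included, per 500000 read pairs) and distinct Igl junctions (lower panels), by treatment and bait, on a log scale that is linear from 0 to 1. Points are libraries, 3 per group, and bars are means. All cycling libraries sit at 0, and with STI-571 each Ku70-/- group lies above the WT group.

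The WT and Ku70-/- libraries did not overlap in any of the 6 arrested conditions. Ku70-/- libraries from the coding end had 720, 858 and 625 Igl junctions with L67 against 24, 0 and 0 in WT, and 319, 430 and 211 with L82-G17 against 9, 20 and 12. Signal end libraries of these cells had 423, 1099 and 441 with L67 against 1, 0 and 2, and 267, 187 and 216 with L82-G17 against 16, 0 and 35. Over the 3 arrested treatments, log2(junctions + 1) was 6.11 higher in Ku70-/- with the coding end bait, 69.0-fold on that scale, and 6.61 higher with the signal end bait, 97.4-fold (each an exact permutation test within treatment, p = 0.00025, the smallest of 8000 arrangements, adjusted p = 0.00167). Leaving out each library in turn, the libraries that stood apart included, gave differences from 5.85 to 6.63 and from 6.09 to 6.96. Some WT libraries were at 0, so the folds depend on the added 1. With 0.5 in its place the differences were 6.38 and 7.15. By treatment the folds ran from 22.0 to 249 from the coding end and from 26.1 to 325 from the signal end.

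For distinct junctions, which do not count copies, the gap was smaller and still passed, at 4.33 on the log2 scale from the coding end and 4.19 from the signal end (exact permutation p = 0.00025 for each). After merging within 2 bp it was 3.73 and 3.69. Ku70-/- cells had 587 distinct Igl junctions from the coding end and 337 from the signal end, and WT cells 20 and 5. No WT library held more than 4, while the Ku70-/- libraries held 12 to 124 from the coding end and 2 to 77 from the signal end, the lowest of each being the DMSO library that stood apart.

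Igl also took a larger share of all translocations in Ku70-/- cells. From the coding end it held 13.6%, 33.0% and 74.8% (lowest, median and highest of 9 libraries) of the junctions that left chromosome 6, against 0%, 4.04% and 11.98% in WT. The highest value was the DMSO library that stood apart, and the next was 36.1%. The mean difference was 27.8 percentage points (exact permutation p = 0.00025, adjusted p = 0.00167), and 23.2 without that library. It was 19.3 points for distinct junctions and 12.2 after merging within 2 bp. Merging ignores bait end and overlap, so separate joints to the same position of a pileup count as 1. The lowest, median and highest shares from the signal end were 1.15%, 19.8% and 41.9% against 0%, 0.287% and 12.6%, a difference of 17.9 points (exact permutation p = 0.00125, adjusted p = 0.005), with 15.4 points for distinct junctions and 11.2 after merging. The Igl window came first among the 1-Mb windows outside chromosome 6 in Ku70-/- cells with both baits. The next window, which holds part of the T cell receptor alpha and delta locus on chromosome 14, had 29 distinct junctions against 587 from the coding end and 20 against 337 from the signal end. A window of the mitochondrial genome followed closely, with 28 and 14. In WT cells the first window was a different antigen receptor locus with each bait. This was, from the coding end, the part of Igh on chromosome 12 at 114 to 115 Mb, with 23 distinct junctions against 20 at Igl, and from the signal end the chromosome 14 window at 54 to 55 Mb, with 96 against 5. From the coding end Igl tied with a window of chromosome 2 at 117 to 118 Mb, which also had 20. From the signal end Igl was at rank 6, with ties.

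The ligase inhibitors did not move the Igl counts of both genotypes in 1 direction beyond the spread between libraries. L67 against DMSO gave a difference of -0.92 on the log2 scale from the coding end and 0.88 from the signal end (exact permutation p = 0.33 and 0.245, adjusted p = 0.388 and 0.34). L82-G17 against DMSO gave -0.41 and 1.28 (exact permutation p = 0.475 and 0.255, adjusted p = 0.528 and 0.34). In WT, L82-G17 libraries held 186395 to 213122 junctions in all from the coding end, against 370027 to 385847 with DMSO. From the signal end these were 130487 to 145581 against 339201 to 352630, and in Ku70-/- 116039 to 124915 against 176513 to 192122. The Ku70-/- groups from the coding end overlapped. Per 100000 junctions, the L82-G17 differences were -0.031 and 1.65 and the L67 differences -0.55 and 0.80, past no threshold. By genotype, L67 gave 0.11 in Ku70-/- and -1.95 in WT from the coding end, and 1.67 and 0.088 from the signal end. L82-G17 gave -1.13 and 0.31 from the coding end, and 0.25 and 2.31 from the signal end. The averages of -0.92 and 1.28 thus came mainly from WT libraries, none of which held more than 4 distinct Igl junctions. Without the first Ku70-/- DMSO library the averaged L67 differences were -0.75 and 0.34 and the averaged L82-G17 differences -0.25 and 0.75, again past no threshold. Within Ku70-/- cells alone, 2 of the 4 contrasts had groups that did not overlap: L82-G17 was lower than DMSO from the coding end (320 ± 110 against 713 ± 305, 0.456-fold on the log2 scale) and L67 was higher from the signal end (654 ± 385 against 274 ± 202, 3.18-fold). With 3 libraries against 3 the exact permutation test cannot go below p = 0.1, which both reached. Without the first DMSO library the DMSO means were 537 ± 25.5 and 390.5 ± 2.12 (n = 2), and the folds became 0.573 and 1.51, with groups that still did not overlap. The L67 mean from the signal end was raised by a library with 1099, while the others had 423 and 441, close to that DMSO mean. The other contrasts were at 1.08-fold for L67 from the coding end and 1.19-fold for L82-G17 from the signal end with all libraries, where the groups overlapped. Without the first DMSO library they were at 1.36-fold and 0.567-fold with no overlap, so that the direction of the second turned. Lack of overlap says little with 3 libraries against 2, where the exact permutation test cannot go below p = 0.1. Without that library its p was 0.2 for L67 and 0.2 for L82-G17 from the coding end, and 0.5 and 0.1 from the signal end. In distinct junctions the groups of the first contrast overlapped, with 51, 45 and 36 for L82-G17 against 12, 70 and 76 for DMSO, but not once the library that stood apart, which had the 12, was left out. In the second, the groups did not overlap, with 52, 77 and 60 against 2, 48 and 46, where the 2 came from the library that stood apart. As a share of translocations, L82-G17 libraries with the coding end bait were at 17.5%, 20.3% and 13.6%, below all 3 DMSO libraries at 74.8%, 34.3% and 33.4%. With the signal end bait the groups overlapped, at 23.5%, 11.01% and 16.9% against 1.15%, 19.8% and 19.1%. The inhibitors were used at different doses, so their values are only set side by side.

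Ku70-/- cells yielded fewer Igl junctions from the signal end than from the coding end, a difference of -0.88 on the log2 scale (exact permutation p = 0.02075, adjusted p = 0.0415). Without the first DMSO library of the coding end bait it was -0.77 and no longer passed (exact permutation p = 0.0858), nor did it for distinct junctions (-1.07, exact permutation p = 0.0603). Without the first DMSO library of the signal end bait it was -0.52 (exact permutation p = 0.0425). In WT the difference was -1.38 (exact permutation p = 0.127, adjusted p = 0.212). The baits were amplified in separate libraries, so a difference in yield between the baits cannot be told apart from one in the cells.

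Inside the locus the junctions fell on 6 sites, which were all used at both the coding and the signal end in Ku70-/- cells. Each V and J cut leaves a coding end that keeps the segment and a signal end that keeps the RSS, and prey strand tells them apart. Iglv1 led among joints from the coding end bait with 109 distinct junctions to its coding end and 57 to its signal end. Iglj3 followed with 88 and 53, then Iglj1 with 48 and 55, Iglj2 with 69 and 23, Iglv2 with 27 and 14, and Iglv3 with 24 and 4. Iglv1 again led from the signal end bait with 75 coding and 46 signal end junctions, before Iglj3 with 38 and 51, Iglj1 with 10 and 32, Iglj2 with 9 and 19, Iglv3 with 15 and 10 and Iglv2 with 17 and 8.

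**Figure D2:**
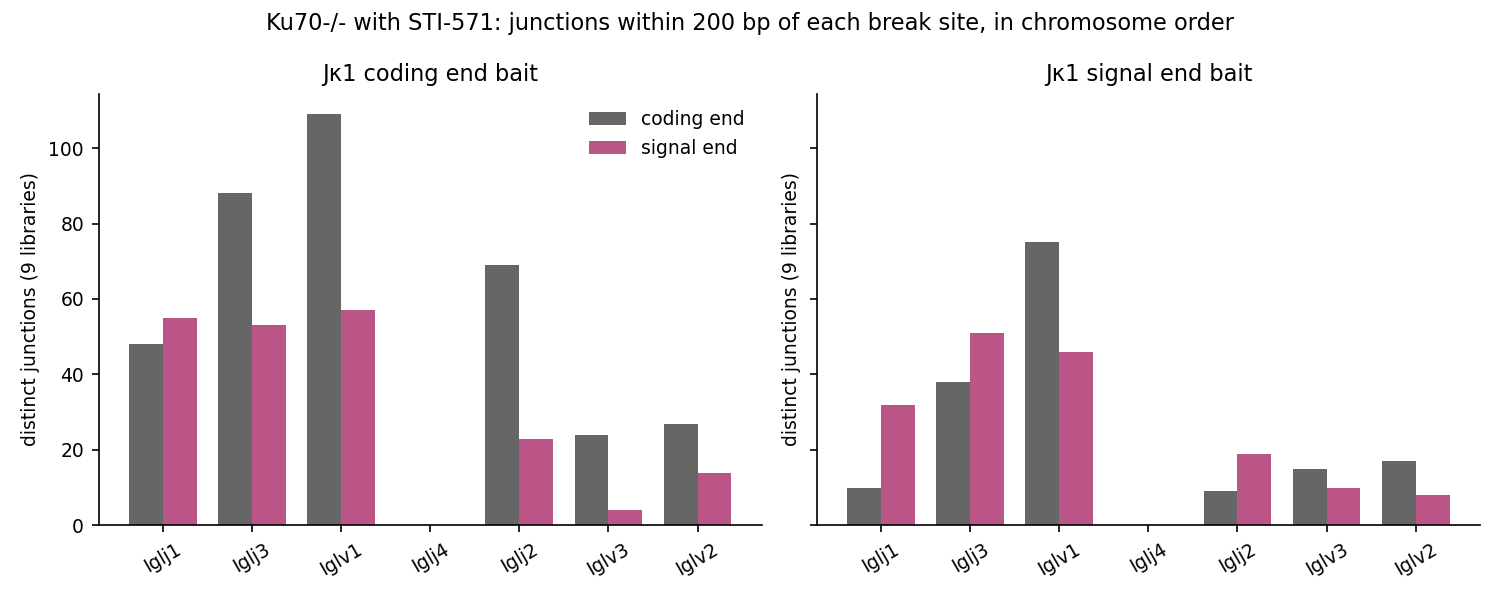
Distinct Ku70-/- junctions within 200 bp of each Igl break site with STI-571, summed over 9 libraries per bait, by the end joined, with sites in chromosome order. Iglv1 has the tallest bars with both baits (109 and 75 coding end junctions) and Iglj4 has none.

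J segments, whose 12-base spacers differ from the 23-base spacer of Jκ1, held 336 of 571 distinct Ku70-/- junctions from the coding end (58.8%) and 159 of 330 from the signal end (48.2%), and V segments, with the same spacer length as Jκ1, held the rest. In WT, J segments held 15 of 20 and 2 of 4. Between the baits the J share of Ku70-/- libraries differed by -8.39 percentage points (signal minus coding end bait, exact permutation p = 0.239, adjusted p = 0.299). Without the first DMSO library of the signal end bait, which had 2 distinct junctions at the sites, it differed by -13.8 points (exact permutation p = 0.0112), and without the third by -4.50 points (exact permutation p = 0.55).

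Signal ends made up 206 of 571 distinct Ku70-/- junctions from the coding end bait (36.1%) and 166 of 330 from the signal end bait (50.3%). Over libraries, the mean difference between the baits was 8.32 percentage points (exact permutation p = 0.299, adjusted p = 0.332), and 14.6 points without the first DMSO library of the signal end bait (exact permutation p = 0.00375). Without the second DMSO library of that bait it was 2.77 points (exact permutation p = 0.734). At J segments, 64.2% of the junctions from the signal end bait went to signal ends, against 37.4% at V segments. The J value was higher in 7 of the 8 libraries with junctions at both, by 18.9 points on average (exact sign-flip test over libraries, p = 0.0312, adjusted p = 0.0781). Leaving out 1 library gave 14.2 to 23.03 points, and in 5 of 8 omissions the unadjusted p was above 0.05, at 0.0625. With the coding end bait the shares were 39.0% at J and 31.9% at V, with a mean difference over libraries of 11.4 points (exact sign-flip p = 0.109, adjusted p = 0.156). It was 5.30 points without the first DMSO library (exact sign-flip p = 0.219) and 28.6 points with copies counted (exact sign-flip p = 0.0156). Other omissions gave up to 13.9 points, and 1 omission passed the unadjusted threshold (lowest exact sign-flip p = 0.0469). In WT, from the coding end bait, 2 of 20 distinct junctions went to signal ends, both at Iglj1 with L82-G17. The Ku70-/- libraries had a larger signal end share than the WT libraries with this bait, by 29.1 points (9 against 7 libraries, exact permutation p = 0.00438, adjusted p = 0.0125). With the signal end bait only 4 WT libraries had a junction at a site, and the difference was -3.34 points (exact permutation p = 0.875, adjusted p = 0.921), which turned to 2.92 points without the first Ku70-/- DMSO library (exact permutation p = 0.908). The junctions of those 4 WT libraries were 2 joints, each read in 2 libraries.

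Chromosome arms add a further view of strand. Under the germline order of both loci, the coding end bait keeps the part of chromosome 6 away from its centromere, so a minus strand joint has 1 centromere and a plus strand joint has 0. Ku70-/- cells had 291 distinct joints of the first kind and 296 of the second. The signal end bait keeps the centromere, and there 209 distinct joints had 1 centromere and 128 had 2.

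Junctions lay close to the breaks in WT and spread further in Ku70-/- cells. All 24 distinct WT junctions at the sites were within 6 bp of the break, with a median of 2 bp. The 901 distinct Ku70-/- junctions had a median distance of 13 bp (quartiles 5 and 25 bp), and 90% of them lay within 44 bp. Within 10 bp of the break lay 41.0% of the distinct junctions in the average Ku70-/- library from the coding end and 33.8% from the signal end, against 100% in each WT library with any. The differences were -59.0 points (exact permutation p = 0.000625, adjusted p = 0.00312) and -66.2 points (exact permutation p = 0.00625, adjusted p = 0.0139). The WT side of the first was 7 libraries with 2 to 4 distinct junctions each, of which only 1 was treated with L67. The WT side of the second was 4 libraries with 1 distinct junction each. These were the same joint to the Iglj1 signal end in 2 libraries and the same joint to the Iglv3 coding end in 2. If such joints passed between libraries, the 4 are not separate replicates, which was not tested. By treatment, which was not tested, the Ku70-/- values from the coding end were 66.7%, 46.4% and 32.0% with DMSO, 46.7%, 52.0% and 47.1% with L67, and 31.8%, 20.0% and 26.5% with L82-G17. The L82-G17 libraries were the lowest 3 of the 9 from this bait. Signal end libraries were at 0%, 43.8% and 44.2% with DMSO, 30.8%, 52.6% and 49.1% with L67, and 11.1%, 42.9% and 29.6% with L82-G17, so that the treatments overlapped. The 0% is the DMSO library that stood apart, with 2 distinct junctions at the sites. Without it the L82-G17 libraries were below the other DMSO libraries but still overlapped those with L67.

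**Figure D3:**
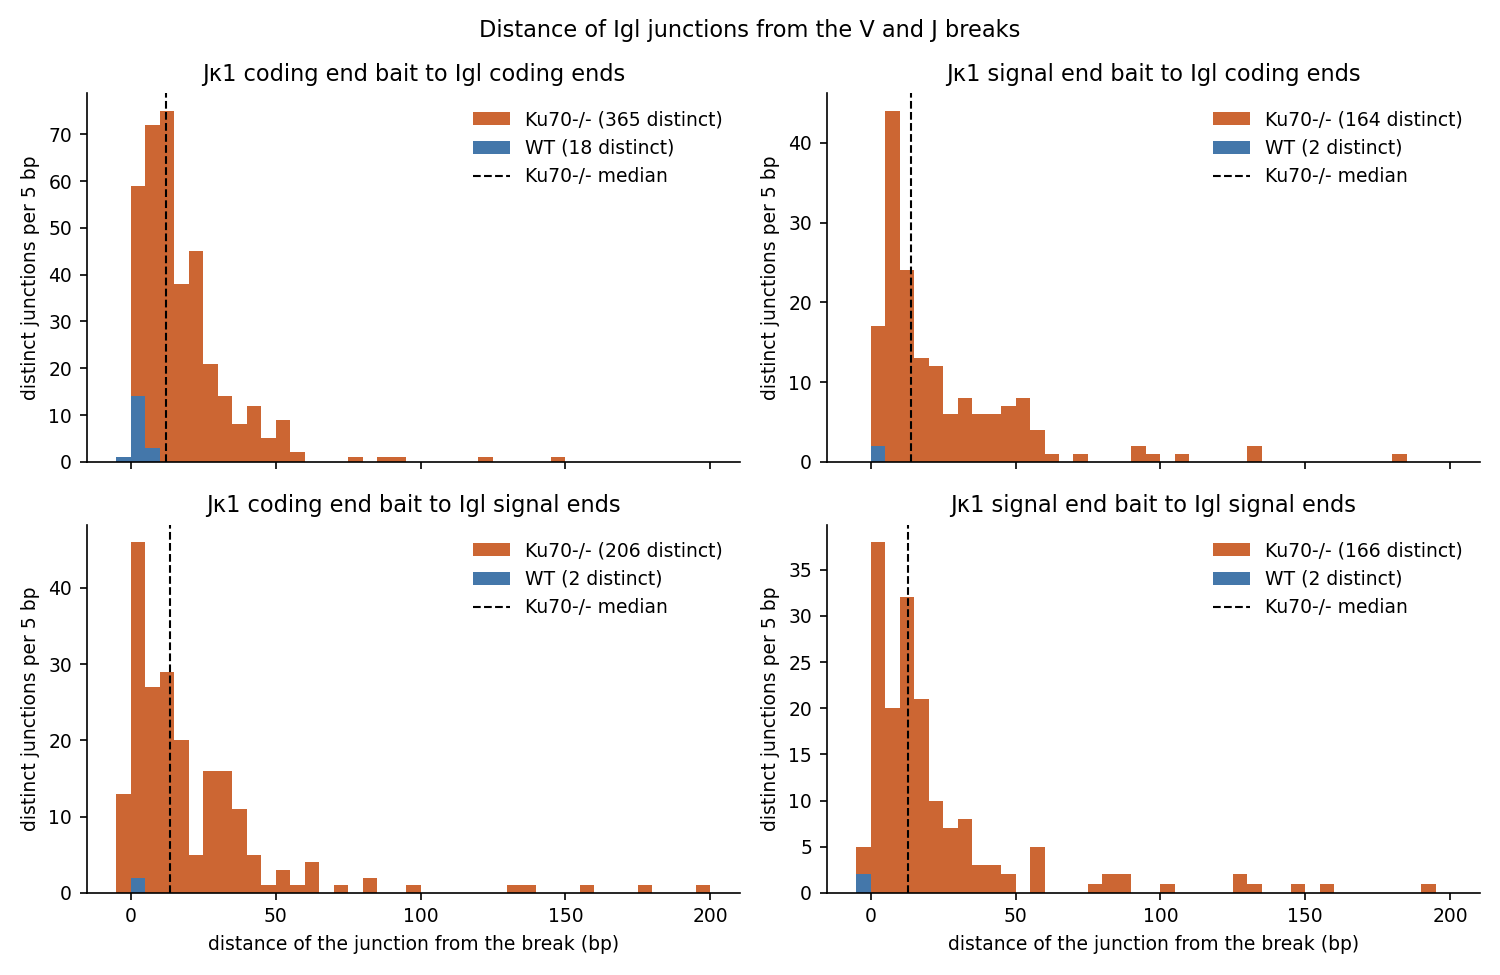
Distance of distinct Igl junctions from the V or J break, in bins of 5 bp, for coding ends (upper) and signal ends (lower) and each bait, with STI-571. Ku70-/- junctions spread with medians between 12 and 14 bp (dashed lines), and the WT junctions sit in the first bins.

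Over all sites and both baits the Ku70-/- medians were 13 bp at coding and at signal ends. By segment they differed in both directions. Coding and signal ends had medians of 12 and 19 bp at V segments and of 13 and 12 bp at J segments. Single sites ran from 12 and 21 bp at Iglv1 to 12 and 4.5 bp at Iglj2 and 14 and 3 bp at Iglv3. Ends that kept all their bases were more frequent among signal ends. At signal ends 44 of 372 distinct junctions (11.8%) sat exactly at the break, against 3 of 529 at coding ends (0.567%). A further 21 junctions of both genotypes lay 1 to 3 bp past the break. In each of these the bait and prey share at least as many bases, and shared bases were counted to both sides, so that none of them needs a base from beyond the cut.

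Coding end pileups sharpened on a few positions. The strongest in the series was position 19085115, in the Iglv1 coding end 5 bp from the break, with 37 distinct junctions in 13 libraries that joined it to 25 different combinations of bait end and overlap. Both baits reached it, the coding end in 19 junctions, of which 1 came from WT, and the signal end in 18. At Iglj3, position 19067167 (4 bp from the coding end break) had 18 distinct junctions in 12 libraries, and position 19200324, at the matching 4 bp of Iglj2, had 16 in 8 libraries, all from the coding end bait. The leading signal end positions were the breaks themselves, with 13 distinct junctions at Iglj3 and 12 at Iglj2.

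Outside the 200 bp around the sites lay 24 distinct junctions, of which 23 came from Ku70-/- cells. Beyond the sites, 2 further pileups held at least 3 of them within 50 bp. One lay 289 to 330 bp from the Iglv1 break, past its RSS, with 5 distinct junctions in 3 libraries, 1 of them on the plus strand. Those at 19084779, 19084782 and 19084783 came from a single Ku70-/- DMSO library with the signal end bait. The other lay 289 to 335 bp from the Iglv2 break, with 4 in 2 libraries. Of these, the junctions at 19260158, 19260160 and 19260161 came from a single Ku70-/- L67 library with the signal end bait. Merging within 2 bp would join them into 1 and leave this pileup below 3. Iglv1 and Iglv2 are near copies, so the split between these pileups is as uncertain as that between the sites. Only 7 distinct junctions lay over 600 bp from every site, and the sole WT one, from the signal end bait with L67, was a single copy and lay farthest from the sites.

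The Jκ1 end was trimmed along with the Igl end. In WT joints from the coding end bait, 0 to 3 bases of Jκ1 were lost and 5 of 20 distinct joints kept all of them. In Ku70-/- joints the median loss was 18 bases with either bait, and 2 of 587 joints from the coding end and 5 of 337 from the signal end were intact. Adding both sides, counting shared bases as lost once, Ku70-/- joints at the sites had lost a median of 38 bases with either bait (quartiles 24 and 57 from the coding end). WT joints had lost 4 bases from the coding end and 1 from the signal end. Translocations elsewhere in Ku70-/- cells had lost a median of 17 bait bases from the coding end and 14 from the signal end. The largest loss was 54 bases from the coding end and 43 from the signal end both at Igl and elsewhere. The study's nested primer lies between the bait break and the first primer, so joints that lost the bases under it cannot be read. Bait losses, and the sums of both sides, are therefore cut off from above. Whether the equal largest losses mark this limit was not tested.

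The most copied joints show both patterns. Each is printed from the read, Jκ1 in lower case and Igl in capitals, with 20 bases on either side of the joint and any shared base given to the Igl part. From the coding end bait, the WT joints with the most copies went to the Iglv2 coding end (18 copies, DMSO) and the Iglj1 signal end (11 copies, L82-G17), and the Ku70-/- joints to the coding and signal ends of Iglj1 (102 and 923 copies, both in the DMSO library that stood apart).
WT to Iglv2 coding end: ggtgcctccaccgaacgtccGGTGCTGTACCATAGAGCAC
WT to Iglj1 signal end: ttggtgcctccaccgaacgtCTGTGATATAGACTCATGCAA
Ku70-/- to Iglj1 coding end: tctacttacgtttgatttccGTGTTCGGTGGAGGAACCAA
Ku70-/- to Iglj1 signal end: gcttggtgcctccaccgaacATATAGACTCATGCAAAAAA
The first WT joint lost 2 bases of Jκ1 and 6 of Iglv2. The WT joint to the Iglj1 signal end keeps most of the heptamer, while the Ku70-/- joint to the same end begins right after it, 7 bases in.

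From the signal end bait, the most copied WT joints went to the Iglv3 coding end (16 copies) and the Iglj1 signal end (35 copies), both with L82-G17, and the Ku70-/- joints to the Iglv1 coding end (121 copies, L82-G17) and the Iglj2 signal end (72 copies, L67).
WT to Iglv3 coding end: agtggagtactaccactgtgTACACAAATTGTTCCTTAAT
WT to Iglj1 signal end: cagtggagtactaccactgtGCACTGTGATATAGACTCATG
Ku70-/- to Iglv1 coding end: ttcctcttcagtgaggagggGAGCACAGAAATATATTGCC
Ku70-/- to Iglj2 signal end: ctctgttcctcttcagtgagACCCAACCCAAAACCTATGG
The WT joint to Iglj1 sets the Jκ1 heptamer directly against the Iglj1 heptamer with no base lost, as in a signal joint, and was read in 2 libraries. The WT joint to Iglv3 kept the whole Jκ1 signal end and lost 2 bases of the V segment, and was also read in 2 libraries. The 2 Ku70-/- joints had lost 37 and 42 bases of the Jκ1 signal end. No Ku70-/- joint at the sites kept every base on both sides, with either bait.

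Joints were read as microhomology, where bait and prey share bases at the joint, as direct, or as insertions. Among the 587 distinct Ku70-/- Igl joints from the coding end, 266 were direct (45.3%), 157 shared 1 base (26.7%), 136 shared more than 1 (23.2%) and 28 had insertions (4.77%). Signal end joints gave shares of 46.3%, 24.6%, 20.8% and 8.31% of 337. The longest microhomology was 13 bases, and 15 joints from the coding end shared more than 4. In WT, 9 of 20 joints from the coding end shared 1 base, 6 were direct, 4 had insertions of up to 3 bases and 1 shared more than 1 base. Microhomology over 1 bp was more frequent in Ku70-/- than in WT libraries from the coding end, by 19.7 points (exact permutation p = 0.00438, adjusted p = 0.0125). With sharing of 1 base counted too, the sign turned to -5.90 points (exact permutation p = 0.502). Among signal end libraries, where 5 WT libraries held 1 distinct joint each, the difference was 1.92 points (exact permutation p = 0.942, adjusted p = 0.942). It was 4.16 points without the first Ku70-/- DMSO library (exact permutation p = 0.84). It rose to 18.6 points and passed unadjusted (exact permutation p = 0.0125) when only junctions at the break sites were counted or when the first WT library with L67, whose 1 joint lay far from every site, was left out. Either way the WT side was then 2 joints, each read in 2 libraries. Insertions differed by -11.3 points from the coding end and 12.4 points from the signal end, neither past the threshold (exact permutation p = 0.274 and 0.22, adjusted p = 0.343 and 0.338). Leaving out 1 library moved the coding end value between -18.5 (first WT library with L67) and -4.32 points (second WT library with DMSO), never past the threshold. Without the first Ku70-/- DMSO library the signal end value was 7.58 points and passed it (exact permutation p = 0.0167), and without the first WT DMSO library it was 8.21 points (exact permutation p = 0.05).

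**Figure D4:**
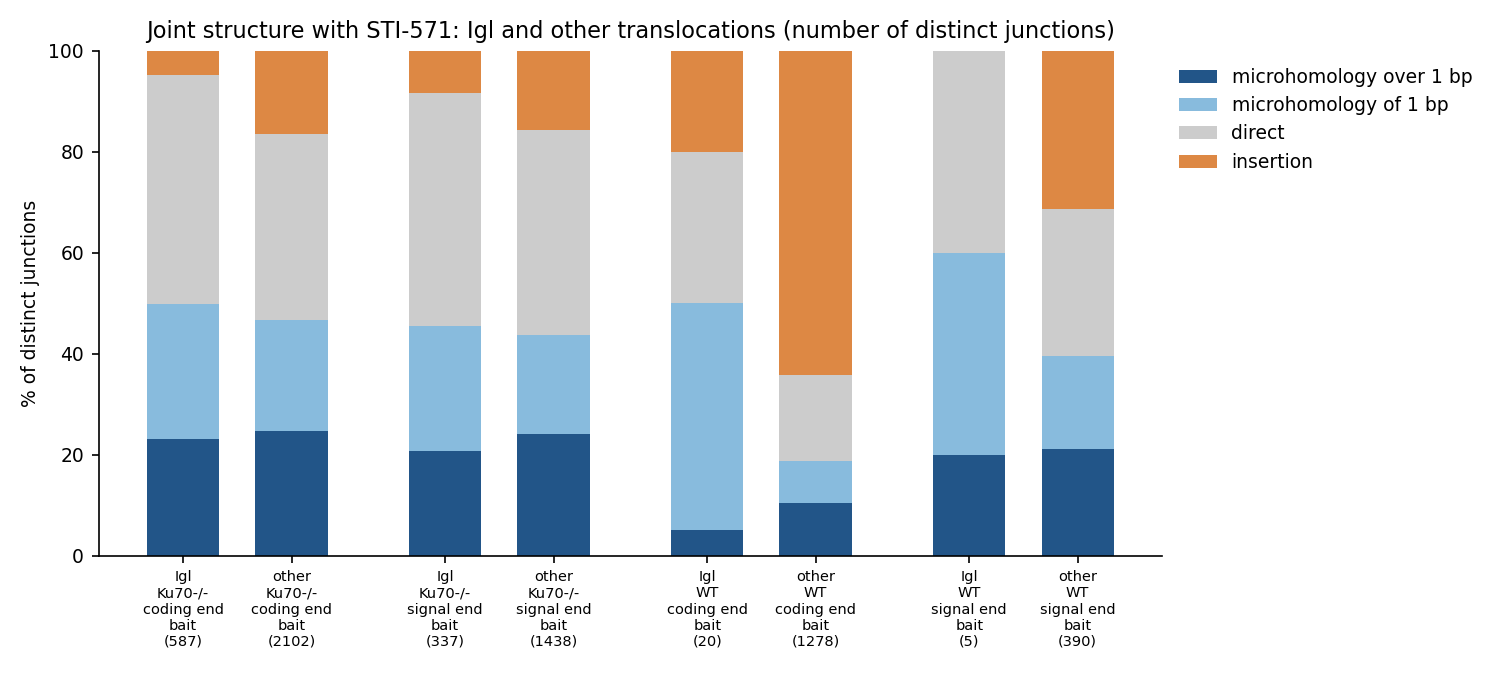
Structure of distinct joints with STI-571, as % of the joints in each bar, for Igl and for other translocations outside chromosome 6, by genotype and bait, with the number of distinct joints under each bar. The insertion segment is shorter for Igl (4.77% and 8.31%) than for other translocations (16.6% and 15.8%) in Ku70-/- cells.

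Set against other translocations of the same Ku70-/- libraries, Igl joints had fewer insertions and more direct joints from the coding end bait. Insertions were in 4.77% of Igl joints and 16.6% of the others, lower at Igl in 9 of 9 libraries, by 10.4 points on average. With copies counted the insertion difference was -4.28 points (exact sign-flip p = 0.00391). Direct joints made up 45.3% and 36.7%, higher at Igl in 9 of 9, by 9.88 points on average. The insertion and direct joint differences each had p = 0.00391 in an exact sign-flip test, the smallest that 9 libraries give (adjusted p = 0.0195). The direct joint difference was 6.73 points without the first DMSO library (exact sign-flip p = 0.00781), and with copies counted it was 9.54 points and did not pass (exact sign-flip p = 0.172). Signal end joints had an insertion difference of -5.35 points (lower in 8 of 9, exact sign-flip p = 0.105, adjusted p = 0.156). Without the first DMSO library it was -7.73 points (exact sign-flip p = 0.00781), with 2-bp merging -9.48 points (exact sign-flip p = 0.00391) and with copies counted -1.64 points (exact sign-flip p = 0.0859). The direct joint difference was 6.95 points (higher in 8 of 9, exact sign-flip p = 0.0234, adjusted p = 0.0781), and 15.1 points with copies counted (exact sign-flip p = 0.0938). Microhomology over 1 bp differed by -2.98 and -5.10 points (exact sign-flip p = 0.637 and 0.105, adjusted p = 0.637 and 0.156). With copies counted the second was -15.3 points (exact sign-flip p = 0.00781), and without the first DMSO library the values were 0.93 and -2.89 points. In WT cells from the coding end bait, 821 of 1278 other translocations (64.2%) had insertions against 4 of 20 at Igl.

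Ku70-/- Igl junctions were copied a median of 5 times from the coding end and 4 times from the signal end, and other translocations of the same libraries 2 times with either bait. Of the distinct Igl junctions 100 of 587 and 95 of 337 were seen in 1 copy, against 41.8% and 42.5% of the others. A few junctions carried much of the total. The most copied 10% from the coding end held 44.7% of the Igl copies, and the single junction of 923 copies made up most of the 1065 of its library. Each copy is a read pair of an amplified library without molecular identifiers, so copies are not separate events.

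**Figure D5:**
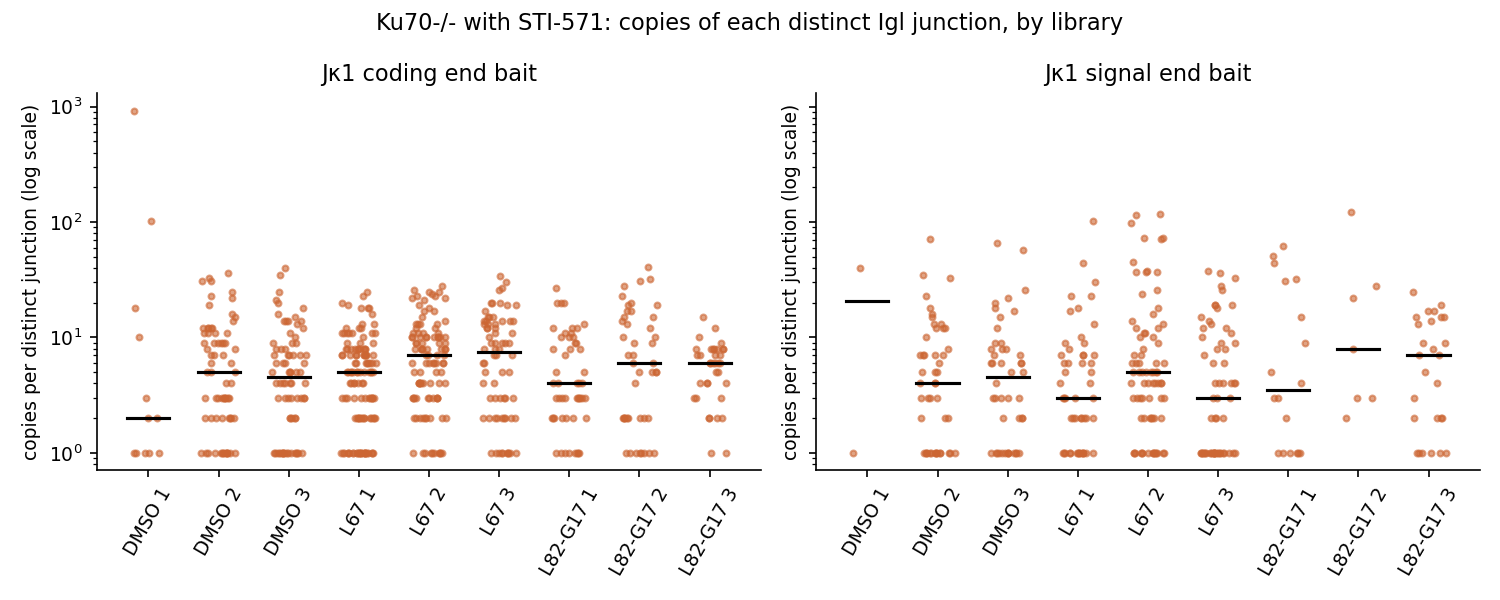
Copies of each distinct Igl junction in the Ku70-/- libraries with STI-571, on a log scale, by library and bait. Points are distinct junctions, spread sideways for view, and bars are library medians. The first DMSO library from the coding end holds 12 points, with 1 at 923.

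Identical joints, with the same prey position, strand, bait end and overlap, recurred between libraries. Of 880 different joints, 60 were found in more than 1 library, 54 of them in 2, 3 in 3 and 3 in 4. They were all shared within a genotype, and 35 were shared across treatments. Iglv1 held 22 of them, Iglj3 13, Iglj1 and Iglj2 10 each, Iglv3 4 and Iglv2 1. Coding ends held 43 and signal ends 17. None had an insertion, and 10 (16.7%) shared more than 1 base, against 22.8% of the joints found in 1 library. Whether recurrent joints arose separately or passed between libraries was not tested. Without them, the difference between Ku70-/- and WT in the number of distinct Igl junctions kept its direction and its side of the threshold with both baits.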

How the data were processed

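The deposited files list 1 junction per row, and their values are whole positions, strands and read offsets (other units, per the file headers) of HTGTS-JoinT-seq junctions from vAbl pro-B cells. The authors took 500000 read pairs per library, aligned them to mm9 (Bowtie2 is named in the submitters' processing notes), kept duplicate junctions and added joints within the bait region. Members were rows on chromosome 16 from 19 to 20 Mb. The members, lists and tests were chosen with earlier results of these data known. Junctions were counted as deposited per 500000 read pairs. A distinct junction was 1 combination of prey position, strand, bait end and overlap within a library. Each was assigned to the nearest break, taken from GENCODE vM1 borders beside a heptamer opening with CAC within 10 bp, on the mm9 genome. J segments were placed with RefSeq's gene order and lengths (38 bases), and Iglj1 and Iglj4 where at least 25 of 38 bases next to CAC equalled Iglj2 or Iglj3. Named were all V and J segments, pileups of at least 3 distinct junctions within 50 bp outside 200 bp of a site, and the most copied joint per bait, end and genotype. RefSeq's Iglj3p was not placed here.

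Libraries were the replicates. Means of log2(junctions + 1), or percentages, were set against each other by enumerating all exchanges of libraries within genotype or treatment (exact permutation, two-sided), with the differences averaged. P-values were Benjamini-Hochberg adjusted over the 20 designed tests, and over 10 further tests added after the values were seen (sign-flip tests over the 9 Ku70-/- libraries per bait, and comparisons between baits). Libraries with no distinct junction gave no percentage. The tests were checked on simulated data. Python 3.11.15, NumPy 2.4.6 and pysam 0.24.0 were used. Replicate numbers follow the order of deposit and pair no libraries. The alternatives were counting distinct junctions, merging positions within 2 bp, sites only, another pseudocount (0.5), scaling to 100000 junctions, joints of 1 library only, other distance limits, and leaving out each library. Merging used prey position and strand only, whatever the bait end and overlap. Depth limits counts of 0 to at most 3 separate junctions, for counting error only, and this limit does not cover copies.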

Additional observations from a re-analysis of the deposited data

How the results depend on the processing

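The difference between Ku70-/- and WT in Igl counts, in Igl share of translocations and in junctions within 10 bp of a break kept its direction and its side of the threshold (an unadjusted p of 0.05), though not its size, with both baits under the alternatives run, as did the arrest effect and the signal end difference with the coding end bait. Leaving out each library in turn, the Ku70-/- against WT count difference ranged from 5.85 to 6.63 (log2) with the coding end bait and from 6.09 to 6.96 with the signal end bait.

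Counts with inhibitors turned with how junctions were counted. With distinct junctions, 2-bp merging or joints of 1 library only, L67 against DMSO from the coding end became 0.088, 0.14 and 0.11, and L82-G17 became 0.068, 0.53 and 0.040, none past the threshold. From the signal end, L82-G17 became -0.17 with joints of 1 library only. Leaving out each library gave -1.69 to -0.45 for L67 from the coding end, -0.71 to 0.054 for L82-G17 from the coding end, 0.75 to 2.05 for L82-G17 from the signal end, 0.34 to 1.26 for L67 from the signal end (passing without the first WT DMSO library, p = 0.045, exact permutation) and 3.77 to 4.69 for arrest from the signal end, which passed without either WT DMSO library at 0. Signal against coding end bait passed in WT with distinct junctions (-0.93) and joints of 1 library only (-1.18), and failed in Ku70-/- with distinct junctions (-1.07), 2-bp merging (-0.81) and joints of 1 library only (-1.06). Leaving out each library gave -1.72 to -0.86 in WT and -1.06 to -0.52 in Ku70-/-, where 5 of the 18 omissions lost the call.

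For joint structure, counting 1 shared base as microhomology turned the difference to -5.90 points from the coding end and -26.7 from the signal end. From the signal end it was -2.22 with copies and 18.6 at break sites only (passing, exact permutation p = 0.0125), and ranged from -14.7 to 18.6 over left-out libraries. The signal end share ranged from -28.2 to 26.2 there. Insertions from the signal end ranged from 7.58 to 15.2, passing without the first Ku70-/- DMSO library, and from the coding end from -18.5 to -4.32. Of the added tests, the difference between baits in signal end share became -2.46 with copies, the difference between J and V segments in signal end share from the signal end bait lost the threshold in 5 of 8 omissions and with joints of 1 library only (17.5, exact sign-flip p = 0.0547), and microhomology of Igl against other translocations from the coding end ranged from -5.33 to 0.93 over left-out libraries, while insertions from the signal end ranged from -7.73 to -3.97. The cause of these changes was not tested. No paired analysis was run, because the labels carry no replicate numbers and do not say whether libraries of different baits share DNA. The first Ku70-/- DMSO library in order of deposit stood apart with both baits, but pairing by this order was not tested. If libraries are paired across baits, the comparisons between baits ignore it. No arrested WT library held more than 4 distinct Igl junctions, which limits the precision of every WT percentage.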
